A study of Homo sapiens with 6 samples.

Results

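Nonmuscle actins, nonmuscle myosin II chains and alpha-actinins were examined in HCT116 cells that carried a control lentivirus or a lentivirus expressing the small nucleolar RNA SNORA28. The genes were a given list of 10: ACTB and ACTG1 (actins), MYH9 and MYH10 (myosin heavy chains), MYL6 (essential light chain), MYL9, MYL12A and MYL12B (regulatory light chains), and ACTN1 and ACTN4 (alpha-actinins). They were found by GENCODE symbol among the 60612 Ensembl genes of each expression table. All 10 were present and passed the filter on low values.

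Actin monomers assemble into filaments, and bipolar filaments of nonmuscle myosin II slide them past each other with energy from ATP. Each myosin II molecule has a pair of heavy chains with the motor, essential light chains that stabilise the lever arm, and regulatory light chains whose phosphorylation switches the motor on. Alpha-actinin crosslinks actin filaments into bundles. In epithelial cells this machinery tenses the junctional belt, moves the cell front and rear, and closes the cleavage furrow at division.

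HCT116 is an established human colorectal carcinoma line of epithelial origin. RNA from cells with the control virus (LV-NC) or with the SNORA28 virus (LV-SNORA28) was selected for poly(A), made into strand-marked libraries and sequenced, with 3 libraries per group. Cells of both groups had been infected with lentivirus. The paper describes collecting them after infection and mentions no step that picked single clones. It also describes puromycin selection of stable SNORA28 overexpressing cells, and its sequencing section does not mention that step. Nothing stated that the libraries of a group came from separate cultures, so p-values measure only the spread between these libraries.

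The 6 libraries listed 24231 to 25771 genes above 0 FPKM (fragments scaled to transcript length and library total), and read depth was not given. Mitochondrially encoded genes took 42.7% to 47.7% of all FPKM under LV-NC but 35.9% to 38.3% under LV-SNORA28. SNORA28 itself, which checks the labels, was given as 0.92, 0 and 0.64 FPKM under LV-NC, and under LV-SNORA28 as 15.0, 13.7 and 15.2 (limma adjusted p = 0.00228). The epithelial label was met by level: EPCAM ran from 96.9 to 115 FPKM, KRT19 from 358 to 412 FPKM and CDH1 from 9.65 to 14.4 FPKM. Between the groups, limma called none of 6 epithelial markers, beside 8.91% of all genes tested. At an unadjusted p below 0.05 there was 1, CLDN7 (16.7%, beside 28%), with a log2 fold change of 0.49. The groups did not overlap in 2 of the 6 (33.3%, beside 35.1%). Of 8 smooth muscle and fibroblast markers, ACTG2, MYH11, CNN1 and PDGFRB were at 0.10 FPKM or below in every library and COL1A2 was at 0 in all of them. The rest of that list was present at a low level: ACTA2 (2.1 to 3.84 FPKM), DES (1.42 to 2.13 FPKM) and COL1A1 (3.16 to 4.46 FPKM). ACTA2 was called higher in LV-SNORA28 (limma adjusted p = 0.0273).

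Serum response factor (SRF) is the transcription factor long known to drive actin cytoskeleton genes through a short element called the CArG box, and its MRTF coactivators sense free actin monomers. The box was therefore searched for on both strands in the RefSeq promoter windows of GRCh38.p14, which run from 250 bases before to 50 bases after a listed start. Windows were listed for 8 of the 10 genes, ACTB and MYL9 being the genes without one. A box was present for 2 of those 8, ACTG1 and ACTN1, in 2 of the 16 windows of the 8 genes (12.5%). Over all 35116 windows the share was 1.29%, and over the 12692 windows of genes tested it was 1.07%. These shares count windows, of which a gene can have several, and for the members they rest on 2 windows. The share of genes with a box was not counted over all genes. The members' boxes are shown with the boxes of SRF and MYO1E, the called genes of the wider pathway in which the search found one. The search also found boxes, not shown, for ACTA1, ACTC1, ACTG2, FLNA, ROCK2 and MYLK, and none of these genes was called. ACTA1, FLNA and ROCK2 had log2 fold changes of -0.12, -0.12 and -0.17 from LV-NC to LV-SNORA28. ACTC1, ACTG2 and MYLK did not pass the filter on low values. In the sequences below, the boxes are in capitals and the strand is that of the gene.
ACTG1, chr17:81512874-81512903, minus strand, box 85 bases before the start: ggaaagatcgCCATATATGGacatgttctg
ACTN1, chr14:68977718-68977747, minus strand, box 162 bases before the start: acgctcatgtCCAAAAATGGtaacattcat
SRF, chr6:43171229-43171258, plus strand, box 21 bases before the start: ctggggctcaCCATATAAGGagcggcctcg
SRF, chr6:43171249-43171278, plus strand, box 1 base before the start: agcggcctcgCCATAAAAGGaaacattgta
MYO1E, chr15:59372883-59372912, minus strand, box 22 bases before the start: gctgagttctCCATTTATGGacagattgcc

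The ACTN1 box lay in 1 of its 4 listed windows, and the pair of SRF stretches overlap each other. A match describes the letters of the window only and was not tested as a binding site.

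Setting LV-SNORA28 against LV-NC asked which genes of this machinery changed their RNA level when SNORA28 was raised. None of the 10 genes was called at an adjusted p below 0.05 by limma, against 8.91% of the 12076 genes tested (1076 genes, 822 or 6.81% higher and 254 or 2.1% lower). At an unadjusted p below 0.05 the count was 1 of 10, MYL9, against 28% of genes tested. Under the threshold of the study, which asks for more than a 1.5-fold change at an unadjusted p below 0.05, it was 0 of 10 against 3.79%. The groups did not overlap in 1 of 10, again MYL9, against 35.1% of genes tested (27% with LV-SNORA28 above and 8.16% with it below). All 10 confidence intervals (95%) stayed within a 1.5-fold change in either direction, as they did for 75.0% of the genes tested. RNA was taken from whole cultures, so fewer cells of a kind and less RNA per cell cannot be told apart.

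On the log2(FPKM + 1) scale the median change of the 10 genes was 0.056, beside 0.085 over all genes tested, and 7 of the 10 lay above 0, beside 66.7%, although ACTB and ACTN1 went below 0 with quantile normalization and ACTN1 with scaling to genes not encoded in mitochondria. Their median absolute change was 0.073, beside 0.15 over all genes. The standard errors were alike, with a median of 0.095 for the 10 genes and 0.097 for all. Quantile normalization brought the median of all genes to -0.0013 and split the calls over the whole table into 451 higher and 375 lower. None of the 10 genes was called under it.

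**Figure D1:**
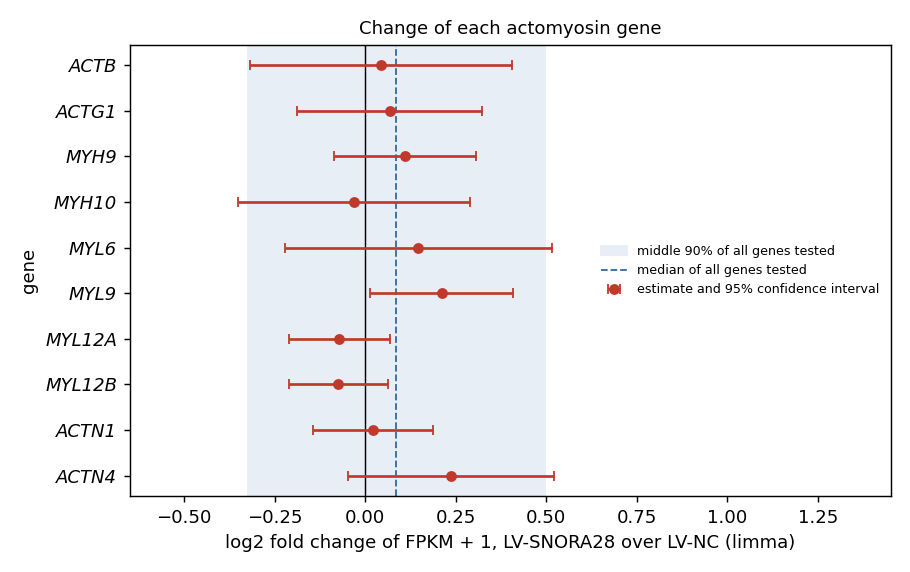
Change of each actomyosin gene from LV-NC to LV-SNORA28 on the log2 scale of FPKM + 1 (horizontal axis), with points for the limma estimate and bars for the 95% confidence interval (3 libraries per group). The shaded band holds the middle 90% of all 12076 genes tested, from -0.32 to 0.50, and every point lies inside it, with the MYL9 interval the only one that stays above 0.

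By level, which FPKM allows to be compared per length, ACTG1 stood first with a mean of 681 FPKM over the 6 libraries and rank 39 of the genes tested. ACTB followed at 276 FPKM (rank 94) and MYL12B at 248 FPKM (rank 106), and the ranges of these 2 neighbours overlapped. ACTN4 (97.0 FPKM), MYH9 (75.2 FPKM) and MYL12A (62.3 FPKM) came next, and the ranges of MYH9 and MYL12A overlapped. MYL6 stood at 37.2 FPKM, ACTN1 at 17.3 FPKM, MYL9 at 12.8 FPKM and MYH10 at 9.18 FPKM (rank 3851), with MYL9 and MYH10 overlapping. The other neighbours in this order were separated in all libraries. The 10 genes together held 0.769% ± 0.00492 of the FPKM of genes not encoded in mitochondria in LV-NC and 0.782% ± 0.0144 in LV-SNORA28 (SD, n = 3 each). That difference lay within the spread between libraries (exact two-sided permutation p = 0.3, where 3 against 3 libraries cannot go below 0.1). Without LV-SNORA28 3 the difference grew from 0.013 to 0.021 percentage points and the groups did not overlap (exact permutation p = 0.1, the smallest that 3 against 2 libraries allow).

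**Figure D2:**
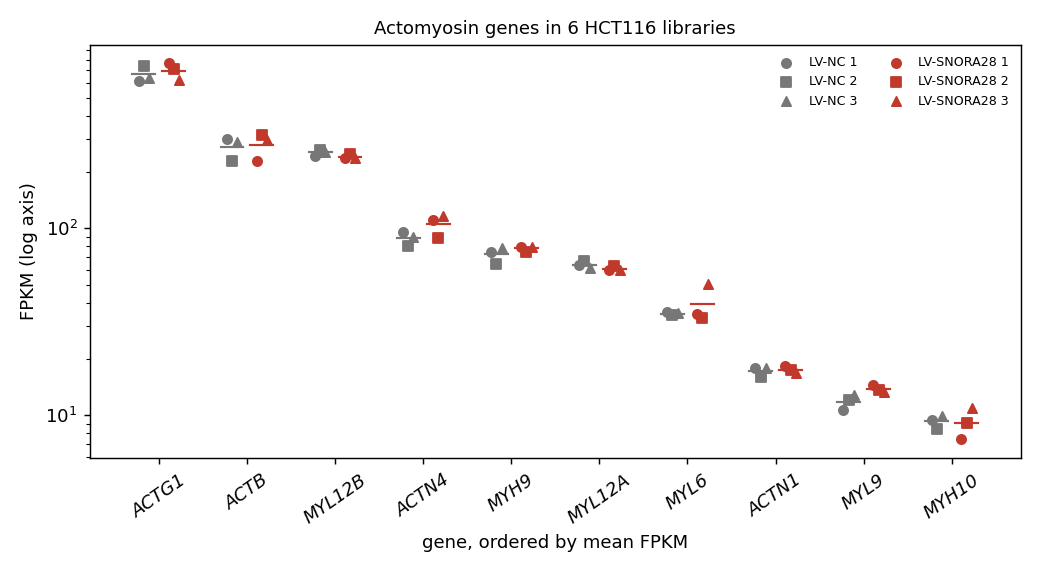
FPKM of the 10 actomyosin genes in each library (vertical axis, log scale), with 1 point per library and a line at the mean of each group. The genes span from 7.42 FPKM for MYH10 to 763 FPKM for ACTG1, and the points of LV-NC and LV-SNORA28 overlap for every gene but MYL9.

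The cytoplasmic actins, beta-actin (ACTB) and gamma-actin (ACTG1), differ by a few residues at the start of the protein and form the bulk of actin in nonmuscle cells. ACTB (ENSG00000075624, GRCh38 chromosome 7, 5526409 to 5563902, minus strand) measured 299, 228 and 288 FPKM in LV-NC 1, 2 and 3 and 230, 314 and 297 FPKM in LV-SNORA28 1, 2 and 3. The groups overlapped fully, and the low libraries were LV-NC 2 and LV-SNORA28 1. The means were 272 ± 38.2 and 280 ± 44.2 FPKM (SD, n = 3), a log2 fold change of 0.044 with a 95% confidence interval from -0.32 to 0.41 (adjusted p = 0.879).

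ACTG1 (ENSG00000184009, chromosome 17, 81509413 to 81523847, minus strand) measured 618, 743 and 636 FPKM in LV-NC 1, 2 and 3 compared with 763, 711 and 619 in LV-SNORA28 1, 2 and 3. Here LV-NC 2 and LV-SNORA28 1 were the highest of their groups, and the groups again overlapped. The log2 fold change was 0.067, with an interval from -0.19 to 0.32 (adjusted p = 0.726).

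Within each library the ratio of ACTG1 to ACTB was 2.07, 3.26 and 2.21 in LV-NC and 3.31, 2.26 and 2.09 in LV-SNORA28. The ratio of LV-NC 2 and of LV-SNORA28 1 stood above 3 and that of the other 4 libraries between 2.07 and 2.26, so the split ran across the groups and not between them (log2 difference 0.023, exact permutation p = 0.7, 0.84 after adjustment over 6 ratios). The sum of both actins was 937 ± 29.5 FPKM in LV-NC and 978 ± 56.3 FPKM in LV-SNORA28 (SD, n = 3, exact permutation p = 0.4). The proteins are close to identical, and whether the counting divided shared fragments between the genes was not tested.

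Myosin heavy chains carry the motor: MYH9 encodes the heavy chain of myosin IIA and MYH10 that of myosin IIB, which stays attached to actin longer. MYH9 (ENSG00000100345, chromosome 22, 36281280 to 36388010, minus strand) measured 74.6, 64.6 and 78.1 FPKM across the control (LV-NC) libraries against 79.0, 75.1 and 79.8 in the LV-SNORA28 ones. The lowest value was that of LV-NC 2, and the other 5 libraries lay between 74.6 and 79.8 FPKM. The log2 fold change was 0.11 (interval -0.087 to 0.31, adjusted p = 0.435), and without LV-NC 2 it was 0.030.

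MYH10 (ENSG00000133026, chromosome 17, 8474207 to 8631376, minus strand) measured 9.46, 8.40 and 9.90 FPKM under LV-NC, and under LV-SNORA28 7.42, 9.06 and 10.9. The LV-SNORA28 libraries held both the lowest and the highest value (log2 fold change -0.031, interval -0.35 to 0.29, adjusted p = 0.905). MYH9 made up 88.7% ± 0.148 of the heavy chain FPKM in LV-NC and 89.6% ± 1.72 in LV-SNORA28 (SD, n = 3). The ratio of MYH10 to MYH9 was 0.127, 0.13 and 0.127 in LV-NC and 0.0939, 0.121 and 0.136 in LV-SNORA28 (exact permutation p = 0.5).

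LV-NC 2 was the lowest LV-NC library for 6 of the 10 genes, and for 43.5% of all genes tested. For the 1820 genes tested whose canonical transcript has at least 6000 nt, deviations were taken from each gene's median over the libraries. The median deviation of LV-NC 2 was -0.19 on the log2 scale, while the other 5 libraries ran from -0.016 to 0.094. The heavy chain transcripts are of that length, 7451 nt for MYH9 and 7707 nt for MYH10. From 4000 to 6000 nt (2302 genes) the median deviation of LV-NC 2 was -0.11, with the other 5 libraries from -0.0272 to 0.0675. ACTN4, at 4990 nt, is in that class. The part of these deviations in the values of these genes was not tested.

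Myosin light chains bind the neck of the heavy chain. MYL6, the essential light chain of nonmuscle and smooth muscle myosin (ENSG00000092841, chromosome 12, 56158346 to 56163496, plus strand), measured 35.5, 34.2 and 35.01 FPKM in LV-NC 1, 2 and 3 compared with 34.95, 33.0 and 50.4 in LV-SNORA28 1, 2 and 3. LV-SNORA28 3 alone stood apart, and the other 5 libraries lay between 33.0 and 35.5 FPKM. The log2 fold change of 0.15 (interval -0.22 to 0.52, adjusted p = 0.580) became -0.039 without LV-SNORA28 3. The neighbouring paralog MYL6B overlaps MYL6 on the same strand and ran from 8.76 to 12.3 FPKM, with 11.3 FPKM in LV-SNORA28 3.

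MYL9 encodes a regulatory light chain best known from smooth muscle and also made in many other cells. The gene (ENSG00000101335, chromosome 20, 36541497 to 36551447, plus strand) measured 10.6, 12.0 and 12.9 FPKM across the control (LV-NC) libraries against 14.5, 13.7 and 13.3 in the LV-SNORA28 ones. All 3 LV-SNORA28 libraries lay above all 3 LV-NC libraries, with a gap of under 1 FPKM between LV-NC 3 and LV-SNORA28 3. The means were 11.8 ± 1.12 and 13.8 ± 0.626 FPKM (SD, n = 3), a log2 fold change of 0.21 or 1.16-fold. Its interval ran from 0.013 to 0.41 and its limma p was 0.0397 before and 0.156 after adjustment, so it did not pass the test. Over all alternatives the adjusted p of MYL9 ran from 0.132 to 0.420.

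MYL12A and MYL12B encode near-identical regulatory light chains and lie side by side. MYL12A (ENSG00000101608, chromosome 18, 3247481 to 3256236, plus strand) measured 63.4, 66.7 and 61.7 FPKM under LV-NC, and under LV-SNORA28 59.5, 63.1 and 59.7. MYL12B (ENSG00000118680, chromosome 18, 3261479 to 3278461, plus strand) measured 244, 263 and 257 FPKM in LV-NC 1, 2 and 3 compared with 237, 250 and 239 in LV-SNORA28 1, 2 and 3. Each gene had its highest value in LV-NC 2, and in each the groups overlapped through LV-SNORA28 2.

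The log2 fold changes of the pair were -0.071 for MYL12A (adjusted p = 0.471) and -0.074 for MYL12B (adjusted p = 0.450), and with quantile normalization they were -0.15 and -0.050. Their intervals, from -0.21 to 0.068 and from -0.21 to 0.063, were the narrowest of the 10 genes. The ratio of MYL12B to MYL12A ran from 3.85 to 4.17 over the 6 libraries and its log2 difference between the groups was -0.0017 (exact permutation p = 1). The antisense gene MYL12-AS1 overlaps both genes. The strand setting of the counting was not given in the sources used here, so reads of that gene cannot be told apart from theirs.

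The ratio of MYL9 to the sum of MYL12A and MYL12B was 0.0346, 0.0363 and 0.0403 in LV-NC and 0.0489, 0.0436 and 0.0445 in LV-SNORA28. The groups stood apart, and the ratio was 1.23-fold higher in LV-SNORA28 (log2 difference 0.30). The exact permutation p was 0.1, the smallest this design allows, and 0.6 after adjustment over the 6 ratios. MYL9 was a minor part of the regulatory light chain RNA in both groups. The light chains summed were 4.21, 5.15 and 4.17 times the heavy chains summed in LV-NC and 4.0, 4.28 and 3.99 times in LV-SNORA28 (exact permutation p = 0.3), with LV-NC 2 the highest.

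**Figure D3:**
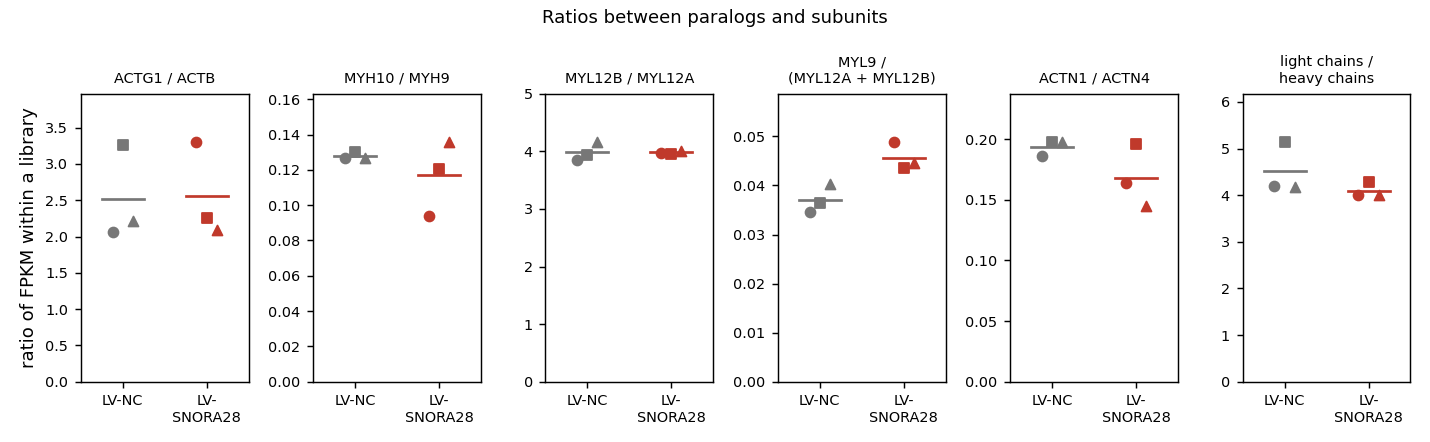
Ratios of FPKM between actomyosin genes within each library (vertical axes), with 1 point per library in LV-NC and LV-SNORA28 (circle, square and triangle for libraries 1, 2 and 3) and a line at the group mean. The ratio of ACTG1 to ACTB is above 3 in 1 library of each group, and the ratio of MYL9 to MYL12A plus MYL12B is the one in which the groups do not overlap.

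Alpha-actinins join actin filaments side by side and link them to adhesions. ACTN4 (ENSG00000130402, chromosome 19, 38647649 to 38731589, plus strand) measured 95.9, 80.6 and 89.8 FPKM across the control (LV-NC) libraries against 111, 88.6 and 116 in the LV-SNORA28 ones. LV-SNORA28 1 and 3 stood above all LV-NC libraries, while LV-SNORA28 2 lay below LV-NC 1 and LV-NC 3. The log2 fold change of 0.24 was the highest of the 10 genes, with an interval from -0.047 to 0.52 and an adjusted p of 0.25. Without LV-NC 2 it was 0.17 (limma adjusted p = 0.465), and on leaving out 1 library each it ran from 0.16 to 0.36.

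ACTN1 (ENSG00000072110, chromosome 14, 68874128 to 68979440, minus strand) measured 17.8, 15.9 and 17.8 FPKM under LV-NC, and under LV-SNORA28 18.2, 17.3 and 16.8. The groups overlapped (log2 fold change 0.023, interval -0.14 to 0.19, adjusted p = 0.862). ACTN4 made up 83.8% ± 0.494 of the alpha-actinin FPKM in LV-NC and 85.6% ± 1.87 in LV-SNORA28 (SD, n = 3). The ratio of ACTN1 to ACTN4 was 0.186, 0.198 and 0.198 in LV-NC and 0.164, 0.196 and 0.145 in LV-SNORA28 (exact permutation p = 0.2, 0.6 after adjustment).

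Pseudogenes can share reads with their parent genes. The annotation holds 44 named after the 10 genes, of which 23 were above 0 in any library and 1 passed the filter. In sum they held 0.453% to 0.610% of the FPKM of the 10 genes. MYL12BP1 was the highest, at 4.75, 4.64 and 5.24 FPKM in LV-NC and 6.17, 4.82 and 4.67 FPKM in LV-SNORA28 (log2 fold change 0.075, adjusted p = 0.695). The pseudogenes of MYL12B came to 1.76% to 2.61% of MYL12B. ACTG1P20, ACTBP2, ACTG1P25 and ACTBP7 had means of 0.747, 0.537, 0.323 and 0.252 FPKM.

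The genes whose log2 values ran most like those of ACTB over the 6 libraries were TM2D3, ARHGAP32 and YTHDC1, with Pearson r of 0.992, 0.992 and 0.992. YTHDC1, an RNA-binding reader of methylated adenosine, was at 12.2, 10.5 and 11.9 FPKM in LV-NC 1, 2 and 3 compared with 10.2, 12.7 and 12.0 in LV-SNORA28 1, 2 and 3, with its low values in the same libraries as ACTB. Those most like MYH9 were SSH2, NFXL1 and ATP2B1 (r of 0.993, 0.991 and 0.991). SSH2, a phosphatase that reactivates cofilin, was lowest in LV-NC 2 at 1.39 FPKM and ran from 2.06 to 2.53 FPKM elsewhere. These r describe 6 libraries that share 2 groups and the scaling of each library, and were picked as the highest among all genes tested.

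The wider actin and myosin machinery was described from 8 lists of 99 genes, of which 88 passed the filter. Of these, 9 rose in LV-SNORA28 and none fell, which is 10.2% beside 8.91% of all genes tested. On leaving out 1 library, 2 to 6 listed genes were called, beside 279 to 628 of all 12076 genes tested. Both counts were lowest without LV-SNORA28 2. With a filter at a mean of 5 FPKM, 13 listed genes were called, beside 910 of all 6241 genes tested. Of the 13, 7 were among the 9, and ACTA2 and MYO5A did not pass that filter. The groups did not overlap in 37.5% of the 88, beside 35.1%. The median log2 fold change was 0.13, beside 0.085, and 71 of 88 lay above 0 (80.7%, beside 66.7%).

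Among SRF and its coactivators, 1 of 3 rose. SRF was at 8.81, 7.30 and 7.89 FPKM across the control (LV-NC) libraries against 13.2, 12.6 and 12.3 in the LV-SNORA28 ones, with a wide gap between the groups. The rise was 0.61 ± 0.080 (SE) on the log2 scale (adjusted p = 0.0106). The coactivators MRTFA and MRTFB had log2 fold changes of -0.027 (adjusted p = 0.854) and 0.40 (adjusted p = 0.570). SRF kept its call in all 13 alternatives, with adjusted p from 0.00722 to 0.0471. ACTG1 and ACTN1, the genes with a CArG box among the 8 that had a window, had the log2 fold changes of 0.067 and 0.023 given above.

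Among 15 proteins of actin monomers and filament ends, 2 rose. WDR1, which helps cofilin take filaments apart, was at 25.0, 23.98 and 27.2 FPKM under LV-NC, and under LV-SNORA28 at 43.1, 42.9 and 37.1 (log2 fold change 0.67 ± 0.083 SE, adjusted p = 0.00970). It was called in all 13 alternatives. TWF1, twinfilin, which binds monomers and caps ends, was at 26.9, 28.0 and 27.7 FPKM in LV-NC 1, 2 and 3 compared with 33.2, 38.7 and 42.2 in LV-SNORA28 1, 2 and 3 (0.45 ± 0.092, log2 fold change ± SE as for the genes that follow, adjusted p = 0.0358). Its call was lost on leaving out any library but LV-SNORA28 1, with adjusted p from 0.0817 to 0.114.

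Of the regulators of myosin II, 2 of 16 rose. CDC42BPB, the kinase MRCK beta, which raises phosphorylation of the regulatory light chains, was at 13.8, 10.5 and 11.6 FPKM across the control (LV-NC) libraries against 20.4, 18.8 and 19.5 in the LV-SNORA28 ones (0.67 ± 0.10, adjusted p = 0.0158). ECT2, the exchange factor that activates RhoA at the cleavage furrow, was at 15.7, 14.4 and 15.7 FPKM under LV-NC, and under LV-SNORA28 at 20.9, 21.6 and 22.8 (0.48 ± 0.066, adjusted p = 0.0114). In both genes the groups were well apart. CDC42BPB had an adjusted p from 0.0537 to 0.0622 without LV-NC 3 or any 1 of the LV-SNORA28 libraries, and ECT2 reached 0.0513 without LV-SNORA28 2 and 0.0502 without LV-SNORA28 3.

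The formins and nucleation promoters held 1 rise among 14 genes tested. WASL, N-WASP, which switches on the Arp2/3 complex, was at 6.86, 5.49 and 6.62 FPKM in LV-NC 1, 2 and 3 compared with 10.7, 9.99 and 10.2 in LV-SNORA28 1, 2 and 3 (0.63 ± 0.090, adjusted p = 0.0128), and its adjusted p was 0.0510 without LV-SNORA28 2 and 0.0542 without LV-SNORA28 3. The 9 subunits of the Arp2/3 complex, which branches filaments, had a median of 0.23 with 0 called by limma (8.91% of all genes tested). Of the 9, 4 had an unadjusted p below 0.05 (44.4%, beside 28%), 8 lay above 0 (88.9%, beside 66.7%) and 5 had groups that did not overlap (55.6%, beside 35.1%). The largest value among them, picked after the values were seen, was that of ARPC4, at 11.04, 12.4 and 12.9 FPKM in LV-NC and 25.4, 28.8 and 15.0 FPKM in LV-SNORA28 (0.83 ± 0.23, adjusted p = 0.070). None of the 14 filament crosslinkers and membrane linkers tested was called by limma, with 3 at an unadjusted p below 0.05 (21.4%, beside 28% of all genes tested) and a median of 0.082.

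Many unconventional myosins carry cargo or tether membranes, and of the 13 listed 2 rose. MYO5A was at 2.21, 1.68 and 2.39 FPKM across the control (LV-NC) libraries against 3.89, 3.31 and 4.04 in the LV-SNORA28 ones (0.62 ± 0.12, adjusted p = 0.0269). MYO1E was at 6.35, 5.34 and 5.94 FPKM under LV-NC, and under LV-SNORA28 at 8.06, 7.64 and 7.43 (0.34 ± 0.078, adjusted p = 0.0459). Both calls were lost whichever library was left out, with adjusted p from 0.0507 to 0.0992 for MYO5A and from 0.0536 to 0.132 for MYO1E. The canonical transcripts of MYO5A (12130 nt), MYO1E (8644 nt) and CDC42BPB (6844 nt) are in the longest class, in which LV-NC 2 deviated most. Without LV-NC 2 their log2 fold changes were 0.52, 0.29 and 0.59 (adjusted p = 0.0532, 0.0979 and 0.0385). Those of WASL (4363 nt), SRF (4231 nt) and ECT2 (4136 nt) are in the class from 4000 to 6000 nt. Without LV-NC 2 the log2 fold changes of WASL, SRF and ECT2 were 0.55, 0.55 and 0.44 (limma adjusted p = 0.0259, 0.0332 and 0.0370).

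Of 10 muscle and other paralogs of the members, 4 passed the filter and 1 rose. ACTA2, smooth muscle alpha-actin, was at 2.66, 2.35 and 2.1 FPKM in LV-NC 1, 2 and 3 compared with 3.84, 3.67 and 3.46 in LV-SNORA28 1, 2 and 3 (0.47 ± 0.088, adjusted p = 0.0273). The levels were low beside the 228 to 763 FPKM of the cytoplasmic actins. The call held without LV-NC 1 (adjusted p = 0.0358) and was lost without any other library, with adjusted p from 0.0724 to 0.0964. ACTA2 overlaps FAS, STAMBPL1 and ACTA2-AS1 on the opposite strand. Besides ACTA2, the smooth muscle and fibroblast markers that passed the filter were DES (1.42 to 2.13 FPKM) and COL1A1 (3.16 to 4.46 FPKM), and neither was called.

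**Figure D4:**
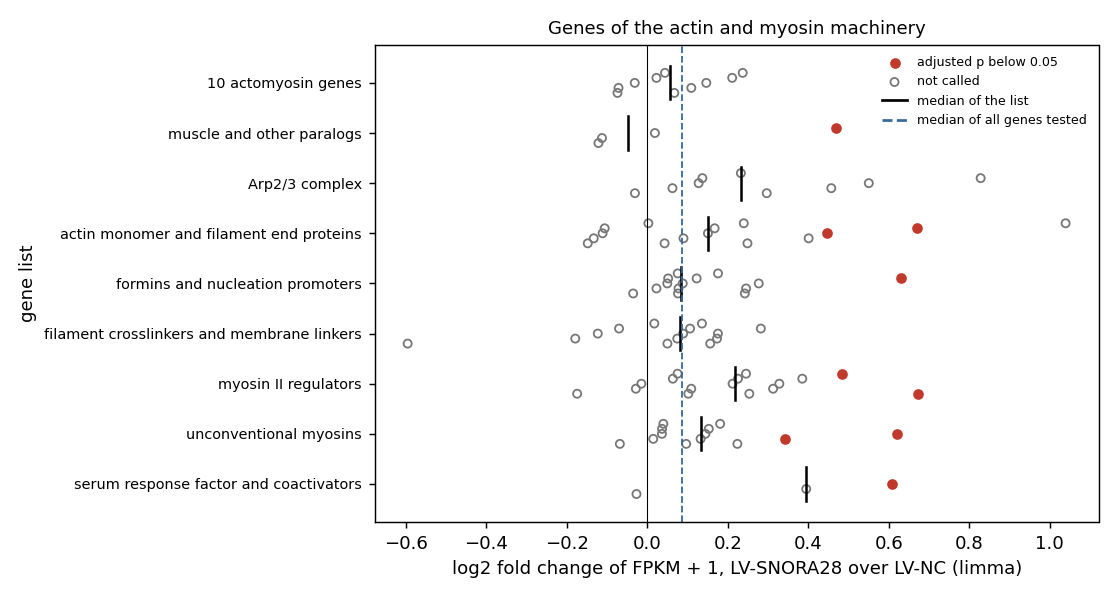
Log2 fold changes of FPKM + 1 from LV-NC to LV-SNORA28 (horizontal axis) for the 10 actomyosin genes and 8 lists of the wider machinery, with 1 point per gene tested, filled red where the limma adjusted p was below 0.05 and a bar at the median of the list. The 10 genes lie between -0.074 and 0.24 with none filled, and the 9 filled points of the other lists lie between 0.34 and 0.67, right of the dashed median of all genes tested at 0.085.

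The lower mitochondrial share in LV-SNORA28 moved with the groups, and FPKM is relative to all mapped fragments. With FPKM rescaled to an equal sum over genes not encoded in mitochondria, 8 of the 9 listed genes were still called, MYO1E being the exception (adjusted p = 0.0726), and none of the 10 actomyosin genes was.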

How the data were processed

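RNA of 6 HCT116 libraries (LV-NC 1 to 3, LV-SNORA28 1 to 3) was analysed, and the titles gave the group and number of each. The values deposited by the authors are FPKM, listed by Ensembl identifier for 60612 genes in a separate table per library. The submitters' processing notes name cutadapt 1.9, HISAT2 2.2.1, StringTie 2.1.6, DESeq2, edgeR and the build hg38. The annotation release and the strand setting of the counting were not given in the sources used here. Read depth is unknown, so no counting interval was attached to any value, and the spread between libraries is the only measure of precision. FPKM is relative to transcript length and to all mapped fragments, so a change in abundant transcripts shifts all other genes.

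GENCODE release 44 gave symbols for 60401 genes, as well as coordinates, transcript lengths and overlaps, and may differ from the annotation used by the authors. Values were transformed to log2(FPKM + 1), which understates changes of low genes. Genes whose mean reached 1 FPKM, 12076 in all, were fitted with limma 3.58.1 in R 4.3.3 (lmFit, eBayes with trend) without covariates. P-values were two-sided and adjusted over all genes tested by the Benjamini-Hochberg method, and a gene was called at an adjusted p below 0.05. Ratios and shares were compared by exact permutation over the 6 libraries (two-sided), adjusted over the 6 ratios. The fit was checked on made-up data with known changes. Motifs were searched with Python 3.11.15 in RefSeq promoter windows.

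The genes, the lists of the wider machinery and the tests were chosen with earlier results of these data known. The text names the 10 genes, up to 3 called genes per list and direction with the smallest adjusted p, the 5 highest pseudogenes and the 3 genes most like ACTB and most like MYH9. No library was entered more than once, as every pair had different values in 26342 genes or more. Alternatives were other scalings, filters, a pseudocount of 0.1, no trend, the replicate number as a block, the threshold of the study, pseudogenes summed with their parent and each library left out.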

Additional observations from a re-analysis of the deposited data

How the results depend on the processing

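None of the 10 actomyosin genes was called by limma in any of the 14 alternative fits. Their single values kept direction and call in 129 instances and changed sign in 11. With quantile normalization ACTB became -0.0079 and ACTN1 -0.057, and with scaling to genes not encoded in mitochondria ACTN1 became -0.0029. Leaving out 1 library each moved ACTG1 from 0.00023 (without LV-SNORA28 1) to 0.15, MYL12A from -0.099 to -0.041, ACTB from -0.077 to 0.18, ACTN1 from -0.027 to 0.049, MYH10 from -0.15 to 0.094 and MYL6 from -0.039 to 0.26, and the median of the 10 genes from 0.0016 (without LV-NC 2) to 0.097. The log2 ratio differences then ran from -0.18 to 0.23 for ACTG1 to ACTB, from -0.26 to 0.0026 for MYH10 to MYH9 and from -0.027 to 0.031 for MYL12B to MYL12A, from -0.33 (without LV-SNORA28 2) to -0.11 (without LV-SNORA28 3) for ACTN1 to ACTN4 and from -0.19 to -0.035 (without LV-NC 2) for light to heavy chains. The share of the 10 genes differed by -0.00062 percentage points when set against protein-coding genes tested, in place of 0.013. Over the whole table the 1076 calls became 397 without a filter (32761 genes tested), 458 under the threshold of the study and 279 to 628 on leaving out 1 library, lowest without LV-SNORA28 2. For SNORA28 and the 9 called genes of the wider machinery, the call was kept in 88 instances and lost, with the same direction, in 40. ACTA2, TWF1, MYO5A and MYO1E lost it without a filter (adjusted p = 0.0765, 0.0897, 0.0806 and 0.102), and TWF1 and MYO1E with quantile normalization (0.0598 and 0.0913). The causes of these changes were not tested. Same-numbered libraries did not deviate together (correlations of -0.044, 0.091 and 0.0098). Whether they shared a culture or a preparation was not stated, and these correlations cannot show it. Blocking on the replicate number left 510 genes called, none of them among the 10, SRF and WDR1 had adjusted p of 0.0368 and 0.0458, and TWF1 and MYO1E were not called (0.0579 and 0.0708). A count-based test with edgeR, planned in place of limma had counts been given, was not run, because the deposited values are FPKM. Unknown read depth limits what can be said of genes near 0.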
